A study of Mus musculus with 12 samples.

Results

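The 10 genes for neuropeptide precursors Pdyn, Penk, Npy, Sst, Tac1, Cck, Vip, Cartpt, Pmch and Pomc were followed in RNA of myelin purified from mouse brain. They were selected on gene identity with normalized read counts of these same libraries already known, the rise of Pdyn between P75 and 6 months among them. Their levels, their changes with age and their spread between replicates are therefore given as a description. The calls stated for them were read from a fit over all genes and use the values known at the choice, so they support nothing, and no p-value is given for them. All 10 were found among the 21937 genes of the table, and all 10 reached the mean normalized read count of 10 over the 12 libraries that 14634 genes reached. Pdyn reached it through its levels at 6 and 24 months alone, and its mean was 8.87 at P18 and 5.13 at P75. The libraries came from male wild-type c57Bl6/N mice aged 18 postnatal days (P18), 75 postnatal days (P75) or an age of 6 or 24 months. Each age had 3 libraries, 12 in all, described as separate mouse brains for 6 months and by replicate numbers alone for the other ages. The preparation is a light membrane fraction of whole brain, enriched for myelin by density gradient centrifugation, and it is not a purified cell type.

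Neuropeptides are short signalling peptides that neurons cut from longer precursor proteins, store in dense-core vesicles and release beside the classical transmitters. Prohormone convertases cleave the precursor at pairs of the basic amino acids lysine and arginine, carboxypeptidase E trims the ends, and an amidating enzyme finishes many of the peptides. Each precursor is made by particular neurons, such as cortical interneurons for Sst, Vip and Npy, striatal projection neurons for Penk, Pdyn and Tac1, and hypothalamic neurons for Pmch and Pomc. Myelin itself is a membrane of oligodendrocytes, wrapped around axons.

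The opioid precursors show this architecture in their coding sequence, and their stretches are printed because the dynorphins, enkephalins and beta-endorphin share this core while their 3 genes changed differently with age. A search of the coding sequences for the opioid core found it 3 times in Pdyn, 7 times in Penk and 1 time in Pomc, and in none of the other 7 genes. Capitals mark the 15 bases that code for tyrosine, glycine, glycine, phenylalanine and 1 further residue. Each stretch is given 5′ to 3′ on the coding strand with the 2 codons on either side. The codons before the core code for a basic pair in all 11 cases. This last residue is leucine in the 3 stretches of Pdyn, methionine in 6 of the 7 stretches of Penk and methionine in Pomc.
Pdyn copy 1 (NCBIM37, chr2:129513968-129513994, minus strand, leucine): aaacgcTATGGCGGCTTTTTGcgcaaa
Pdyn copy 2 (chr2:129513860-129513886, minus strand, leucine): aaacgcTATGGGGGCTTCCTGcggcgc
Pdyn copy 3 (chr2:129513803-129513829, minus strand, leucine): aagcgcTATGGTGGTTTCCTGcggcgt
Penk copy 1 (chr4:4061475-4061501, minus strand, methionine): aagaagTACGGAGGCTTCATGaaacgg
Penk copy 3 (chr4:4061367-4061393, minus strand, methionine): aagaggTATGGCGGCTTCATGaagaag
Penk copy 6 (chr4:4061082-4061108, minus strand, leucine): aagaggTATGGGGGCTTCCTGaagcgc
Pomc copy 1 (chr12:3960367-3960393, plus strand, methionine): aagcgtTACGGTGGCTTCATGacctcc

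Some neuropeptide promoters carry the cyclic AMP response element, a known binding site of the factor CREB. The letters TGACGTCA, which read the same on both strands, were searched in RefSeq promoters of GRCm38.p6 that run from 250 bases before to 50 bases after the start of a gene. The table held 10 promoters of 9 of the genes, Penk not being matched. The element stood in the promoters of Sst and Cartpt, and in 588 of all 32851 promoters (1.79%). Its first letters alone, TGACG on either strand and counted also where they lie inside the full element, stood in promoters of Cartpt, Cck, Sst, Tac1 and Vip and in 20.8% of all promoters. A match describes the letters of the window and not a site in use. The 60 bases around the full element are printed with it in capitals, since both genes had changes described below.
Sst (GRCm38.p6, chr16:23890859-23890918, minus strand): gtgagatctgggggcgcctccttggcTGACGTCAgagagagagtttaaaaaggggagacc
Cartpt (GRCm38.p6, chr13:99900762-99900821, minus strand): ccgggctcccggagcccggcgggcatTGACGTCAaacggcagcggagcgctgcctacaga

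The depth was 20299052 to 27214385 reads on genes per library. All 8 listed myelin genes were present. Their summed normalized read count was 2470150 to 6185970 at P18 and 1273760 to 2370090 at the later ages. Mbp, which encodes myelin basic protein, alone took 4.76% to 20.8% of the reads of a library. It held 1067200 to 5580900 of the sum, so the sum does not describe the other myelin genes. No unpurified brain was among the 12 libraries, so these levels do not measure enrichment. Neuronal RNA was present as well. Of 12 pan-neuronal genes 11 were in the table, and their sum at P18 was 195644 to 232069, at P75 207982 to 238302, at 6 months 185578 to 190900, and at 24 months 171332 to 179663. Snap25, a synaptic gene, held 87058 to 150170 of it in a library, so the sum does not describe the other genes of the list. Libraries of bulk RNA cannot tell fewer cells of a type from less RNA per cell.

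Between P18 and P75 most of the neuropeptide genes were higher at the later age. Of the 10 genes 8 were called higher and 0 lower, where 25.9% of all tested genes were called higher and 22.9% lower (limma on log2(normalized read count + 1), false discovery rate 0.1 over all tested genes). Between P75 and 6 months Pdyn alone was called, higher at the later age, a change known at the choice of the genes, against 31.2% of all genes called higher and 29.4% lower. Between 6 and 24 months 7 genes were called higher and 0 lower, against 16.6% and 12.7% of all genes. The median log2 change of the 10 genes was 0.857, 0.223 and 0.494 in these comparisons, beside 0.015, 0.005 and 0.028 for all tested genes. Since the genes were chosen with these contrasts known, the counts are read only as a description. The last count depends on single libraries: it was 3 without replicate 1 or 2 of 6 months or replicate 3 of 24 months, and 4 without replicate 1 of 24 months. Other settings called more genes: a fit of 6 and 24 months alone also called Penk higher and Pdyn lower, and pan-neuronal scaling also called Penk higher. The middle count was 2 with the replicate number as a block in the fit, since Vip was then called too, and 2 without replicate 3 of P75 or replicate 2 of 6 months.

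**Figure D1:**
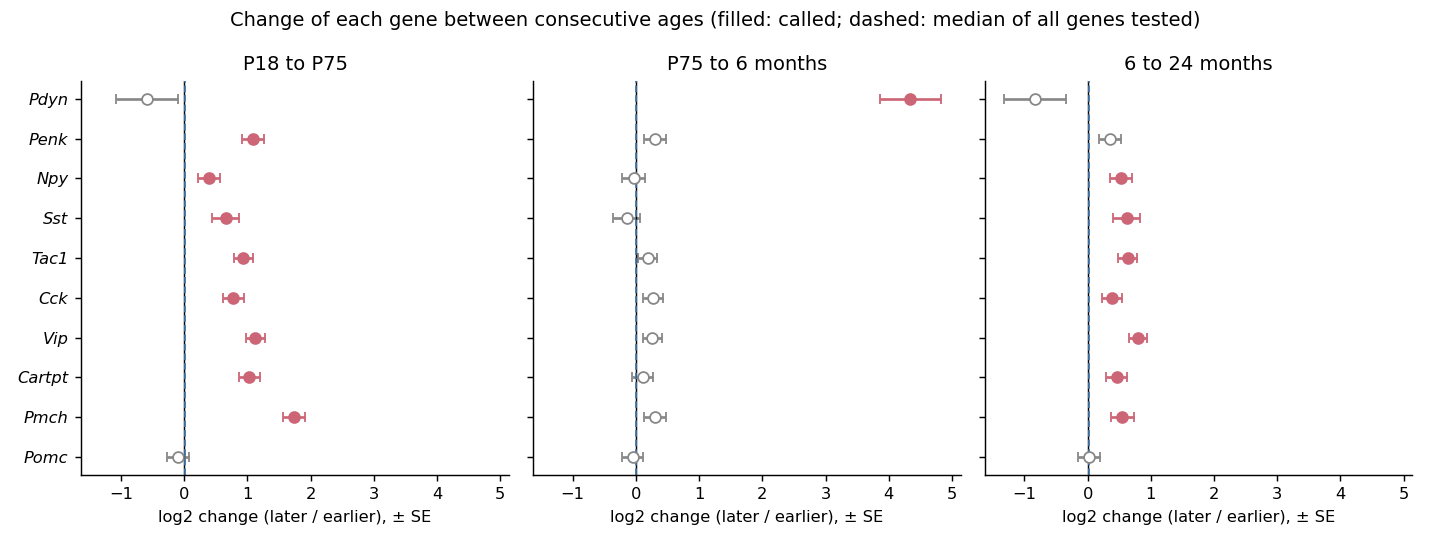
The log2 change of each of the 10 genes between consecutive ages is plotted with its standard error, filled where limma called the gene at a false discovery rate of 0.1, and the dashed line is the median of all tested genes. In the first comparison 8 genes are called, Pdyn in the second and 7 in the third, all on the side of the later age. The small positive changes of Tac1, Cck, Vip and Cartpt between P75 and 6 months turn negative when libraries are scaled to pan-neuronal genes. In that interval this scaling leans on Syt1, which has a log2 change of 2.34. The changes of Pomc turn sign with the scaling in the panels of P18 to P75 and of 6 to 24 months.

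The direction of small changes depended on the scaling. With each library scaled to the same total, 4739 of all genes were higher and 1827 lower from P18 to P75, against 3783 and 3354 with the authors' size factors, and the median of all genes moved to 0.139. From 6 to 24 months the split was 1394 higher and 1614 lower, against 2435 and 1852. The neuropeptide genes called with this scaling were 8, 1 and 5. With each library scaled to the mean log2 level of the pan-neuronal genes, the medians of all genes were 0.307, −0.279 and 0.241. The medians of the neuropeptide genes were then 1.149, −0.06 and 0.706. From P75 to 6 months Syt1 had a log2 change of 2.34, while the other pan-neuronal genes changed by −0.68 (Snap25) to 0.59 (Syn1). The pan-neuronal scaling of that interval thus leans on Syt1, and scaling without it was not tried.

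**Figure D2:**
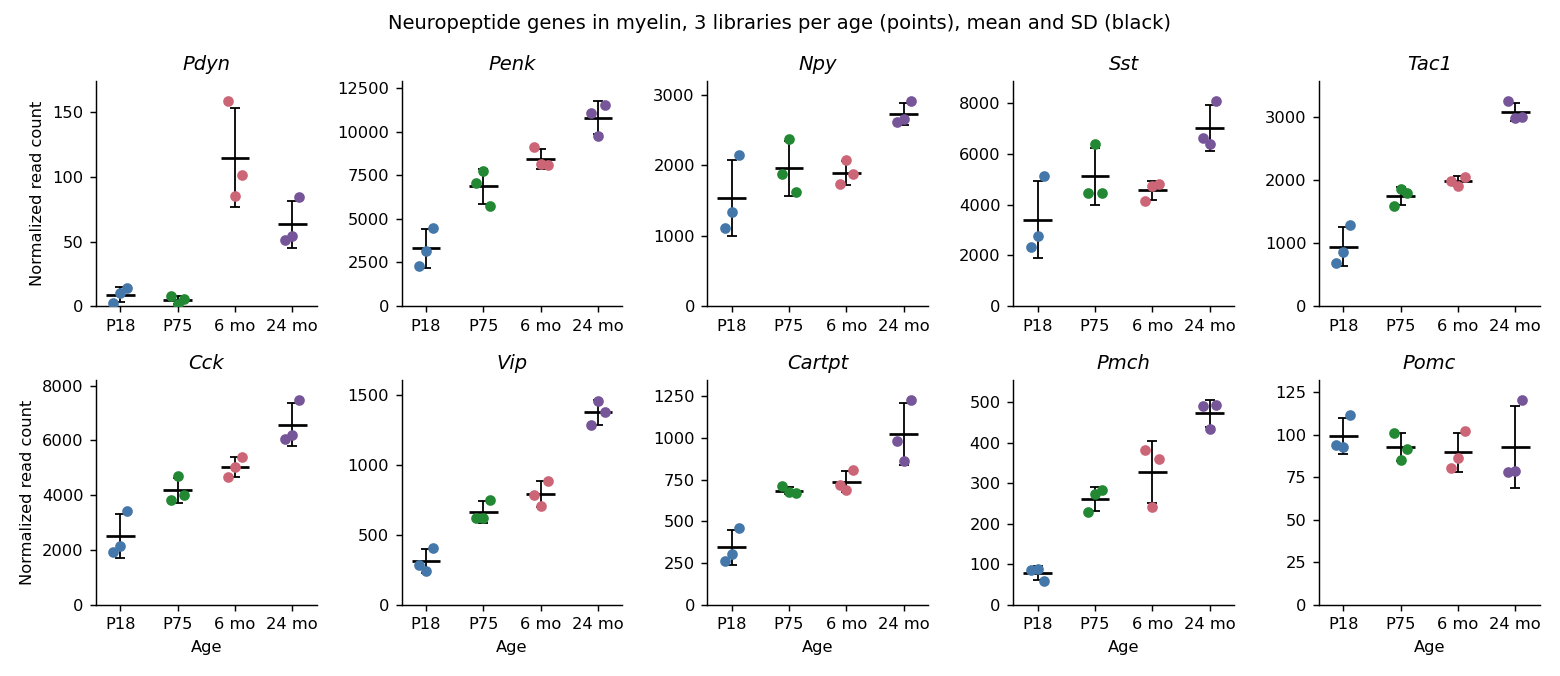
Normalized read counts of the 10 genes are plotted by age, with 1 point per library, the mean as a horizontal line and the SD as an error bar. Of the 10 genes 9 have their highest mean at 6 or 24 months, with Pdyn highest at 6 months, whereas Pomc stays between 78.3 and 120 in all 12 libraries.

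Of the opioid precursors, Pdyn had the largest change. It encodes prodynorphin, the precursor of the dynorphins that act on the kappa opioid receptor, and lies on chromosome 2 of NCBIM37 (chr2:129512301-129525580) with 5 merged exons. The libraries of P18 held 2.38, 10.2 and 14.1 normalized read counts of it and those of P75 8.02, 1.85 and 5.53. At 6 months it was 158, 85.2 and 101.2, and at 24 months 51.5, 54.1 and 84.2. No library of 6 or 24 months overlapped any library of P18 or P75. From P75 to 6 months the mean went from 5.13 ± 3.10 to 115 ± 38.5 (SD, n = 3), a ratio of 22.4 and a log2 change of 4.34 ± 0.49 (SE), rank 3 among the rises of all 14634 genes. The earlier values rest on 2 to 14 reads per library, so that this ratio has a wide counting error, while 96 to 195 reads stood behind those of 6 months. With each library left out in turn, the log2 change lay between 3.87 and 4.70.

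At 24 months Pdyn was at 63.3 ± 18.2 (SD, n = 3), below each library of 6 months and above each of P75. The log2 change from 6 to 24 months was −0.84 ± 0.49 (SE) and was not called. It was called lower in a fit of those 2 ages alone, with a pseudocount of 10, by edgeR (−0.845) and by DESeq2 (−0.853). From P18 to P75 the change of −0.59 ± 0.49 was not called, and without replicate 1 of P18 it was −1.23 and called lower.

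Penk encodes proenkephalin, the precursor of the enkephalins that act on delta and mu opioid receptors. It lies on chromosome 4 (chr4:4060678-4065966) with 3 merged exons, and 233 of their bases overlap exons of A830012C17Rik on the other strand. Whether the counting used strand is not given in the sources used here, so reads of that stretch cannot be assigned. Its normalized read counts were 2278, 3183 and 4487 at P18 and 7070, 7750 and 5756 at P75. They were 9096, 8131 and 8064 at 6 months and 11073, 9740 and 11541 at 24 months. The libraries of each age lay apart from those of the next. The change was called from P18 to P75, with a log2 change of 1.09 ± 0.18 (SE). It was 0.31 ± 0.18 and 0.35 ± 0.18 in the later comparisons and was not called there, although the fits of only the 2 ages called both. With pan-neuronal scaling these changes were 0.02, not called, and 0.57, called higher. From P18 to 24 months the mean went up 3.25-fold.

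Pomc encodes proopiomelanocortin, the precursor of corticotropin, the melanocortins and beta-endorphin, made by neurons of the arcuate nucleus and by the pituitary. It lies on chromosome 12 (chr12:3954951-3960618) with 3 merged exons. Pomc had normalized read counts of 93.9, 92.6 and 111 at P18 and 101.2, 85.3 and 91.8 at P75, then 80.4, 86.1 and 102 at 6 months and 78.3, 78.9 and 120 at 24 months. The libraries of all ages overlapped. The log2 changes of −0.10, −0.05 and 0.02 (SE 0.17 to 0.18) were not called, and their sign turned under another scaling from P18 to P75 and from 6 to 24 months, and without single libraries in the comparisons after P75. Replicate 3 of 24 months, where Pomc was highest, also held the highest counts of 4 of the 7 listed pituitary genes, Gh (11.1), Prl (11.1), Cga (24.99) and Lhb (4.63). It did not hold the highest of Tshb (5.55, against 12.2 in replicate 1 of 6 months) or Fshb (2.78, against 2.97 in replicate 1 of 24 months), and Pou1f1, the defining factor of several pituitary cell types, was at 0 there. In the other libraries Gh and Prl were at 0 to 4.32, and Cga reached 24.77 in replicate 1 of that age. The summed level of 7 pituitary genes was 12.04 to 13.1 at P18 and 9.27 to 14.0 at P75, then 10.7 to 28.4 at 6 months and 21.6 to 60.2 at 24 months, and its part in the level of Pomc was not tested.

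Among the peptides of cortical and hippocampal interneurons, all 4 genes were called higher at P75 than at P18 and at 24 than at 6 months. Sst encodes somatostatin, which inhibits hormone release and neuronal firing, and lies on chromosome 16 (chr16:23889667-23890930) with 2 merged exons. Counts of Sst, normalized per library, were 2317, 2751 and 5128 at P18 and 4471, 6403 and 4458 at P75. They were 4147, 4722 and 4814 at 6 months and 6629, 6395 and 8060 at 24 months. Replicate 3 of P18 lay among the libraries of P75, so these ages overlapped, as did P75 and 6 months, while each library of 24 months was above each of 6 months. The log2 change was 0.65 ± 0.21 (SE) from P18 to P75 and 0.62 ± 0.21 from 6 to 24 months. The first call was lost with DESeq2 and without replicate 1 of P18 (0.42) or replicate 2 of P75 (0.48). The last was lost with DESeq2 and without replicate 1 or 2 of 6 months or replicate 3 of 24 months (0.52 to 0.65). A false discovery rate of 0.05 also removed this last call.

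Npy encodes neuropeptide Y, an abundant inhibitory peptide that also drives feeding, and lies on chromosome 6 (chr6:49772709-49779506) with 4 merged exons. Its normalized read counts were 1111, 1341 and 2142 at P18 and 1869, 2379 and 1621 at P75, then 1729, 2073 and 1869 at 6 months and 2616, 2652 and 2905 at 24 months. The libraries of the first 3 ages overlapped, and those of 24 months lay above all others. Its rise from P18 to P75 was the smallest of the called ones, with a log2 change of 0.39 ± 0.18 (SE). This call was lost with edgeR (0.34), with DESeq2 (0.36), without a filter on low values and in a fit of the 2 ages alone. It was also lost without replicate 1 or 2 of P18 or replicate 1 or 2 of P75 (0.19 to 0.41). A false discovery rate of 0.05 removed it too. The change of 0.53 ± 0.18 from 6 to 24 months lost its call without replicate 1 of 6 months or replicate 2 or 3 of 24 months (0.47 to 0.55).

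For Cck, the precursor of cholecystokinin, a peptide of interneurons and of many cortical neurons, the normalized read counts were 1933, 2150 and 3420 at P18 and 3824, 4704 and 4001 at P75. They were 4645, 5011 and 5379 at 6 months and 6031, 6205 and 7467 at 24 months. The gene lies on chromosome 9 (chr9:121398943-121404807) with 4 merged exons. P18 lay apart from P75, and 6 months from 24 months, while P75 and 6 months overlapped. The log2 change was 0.78 ± 0.16 (SE) in the first comparison and 0.39 ± 0.16 in the last. Between P75 and 6 months it was 0.27 ± 0.16 and not called, with a call in a fit of the 2 ages alone and −0.02 with pan-neuronal scaling. The last call was marginal, since it was lost without any 1 of the 6 libraries (0.29 to 0.44) and without a filter on low values. It was also lost with the same-total scaling (0.35) and at a false discovery rate of 0.05.

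Vip, the precursor of vasoactive intestinal peptide, marks a class of interneurons that inhibit other interneurons, and is also made in the suprachiasmatic nucleus. It lies on chromosome 10 (chr10:4698927-4707323) with 7 merged exons. Vip had normalized read counts of 282, 243 and 407 at P18 and 619, 619 and 752 at P75, then 787, 707 and 889 at 6 months and 1287, 1463 and 1383 at 24 months. The libraries of P18 lay below, and those of 24 months above, all libraries of P75 and 6 months. The log2 change was 1.12 ± 0.15 (SE) from P18 to P75 and 0.80 ± 0.15 from 6 to 24 months. Both calls held in each alternative tried. Between P75 and 6 months the change of 0.26 ± 0.15 was not called, and it was called with the replicate block, in a fit of the 2 ages alone and without replicate 3 of P75 (0.35).

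Tac1, Cartpt and Pmch belong to projection neurons and hypothalamic neurons. Tac1 encodes the precursor of substance P and neurokinin A and lies on chromosome 6 (chr6:7505071-7512973) with 7 merged exons. Tac1 had normalized read counts of 686, 864 and 1283 at P18 and 1584, 1860 and 1802 at P75. They were 1994, 1910 and 2057 at 6 months and 3249, 2988 and 3000 at 24 months. The libraries of each age lay above those of the age before. The log2 change was 0.93 ± 0.15 (SE) from P18 to P75 and 0.63 ± 0.15 from 6 to 24 months, and both calls held in each alternative. The change of 0.19 ± 0.15 between P75 and 6 months was not called, was called in a fit of the 2 ages alone, and was −0.10 with pan-neuronal scaling.

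Cartpt encodes the cocaine- and amphetamine-regulated transcript peptide, which reduces feeding, and lies on chromosome 13 (chr13:100668439-100670638) with 3 merged exons. Its normalized read counts were 263, 307 and 463 at P18 and 709, 675 and 671 at P75, then 721, 686 and 808 at 6 months and 981, 861 and 1227 at 24 months. P75 and 6 months overlapped, and P18 and 24 months lay below and above them. The log2 change from P18 to P75 was 1.03 ± 0.16 (SE), and this call held in each alternative. That from 6 to 24 months was 0.46 ± 0.16. Its call was lost with the same-total scaling (0.42) and at a false discovery rate of 0.05. It was also lost without replicate 1 or 2 of 6 months or replicate 1 or 3 of 24 months (0.32 to 0.48).

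Pmch encodes the precursor of melanin-concentrating hormone, which is made almost only by neurons of the lateral hypothalamus and zona incerta, and it had the largest change of the first interval. It lies on chromosome 10 (chr10:87553817-87555120) with 3 merged exons, and 435 of their bases overlap exons of the gene 4930547N16Rik on the other strand, which had 3.24 to 16.8 normalized read counts. The normalized read counts of Pmch were 86.7, 89.3 and 59.3 at P18 and 228, 273 and 283 at P75. They were 383, 241 and 360 at 6 months and 489, 435 and 492 at 24 months. P75 and 6 months overlapped, and the other neighbouring ages did not. The log2 change was 1.74 ± 0.17 (SE) from P18 to P75, rank 60 of 14634 rises, and 0.55 ± 0.17 from 6 to 24 months. The first call held in each alternative, and the last was lost without replicate 2 of 6 months (0.34) or replicate 1 of 24 months (0.52). The change of 0.30 from P75 to 6 months was not called by limma and was called higher by edgeR, by DESeq2 and without replicate 2 of 6 months (0.51).

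Divided by the merged exon length, the levels kept nearly the same order at all ages. Sst was first with 5674 ± 2526 normalized read counts per kb (SD, n = 3) at P18 and 8532 ± 1868 at P75, then 7614 ± 604 at 6 months and 11733 ± 1504 at 24 months. Cck was second, with 2950 ± 947 at P18 and 7745 ± 924 at 24 months. At P18 the libraries of Sst, Cck, Npy and Penk overlapped from each neighbour to the next, with Npy at 2706 ± 957 and Penk at 2029 ± 680, so the order among these 4 is not resolved there. From P75 on the mean of Penk was above that of Npy, with overlapping libraries at P75 (3523 to 4743 against 2863 to 4203 per kb) and with 6600 ± 572 against 4813 ± 278 per kb at 24 months. Cck and Penk also overlapped at P75 and 6 months, and Vip and Pmch at 6 months. Next came Tac1, Cartpt, Vip and Pmch, in this order at each age. The length used for Pmch includes 435 bases that overlap a gene on the other strand, and that for Penk 233 bases. Whether the counting used strand is not given, so the places of Pmch and Penk hold only if reads of those bases were counted. Pomc came after Pmch, with 98.6 ± 10.5 per kb at P18, where its libraries overlapped those of Pmch, and 91.9 ± 23.9 at 24 months. Pdyn was last at each age, with 3.07 ± 2.06 per kb at P18 and 1.78 ± 1.08 at P75, then 39.8 ± 13.3 at 6 months and 21.9 ± 6.31 at 24 months. At 24 months no neighbours in this order overlapped.

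**Figure D3:**
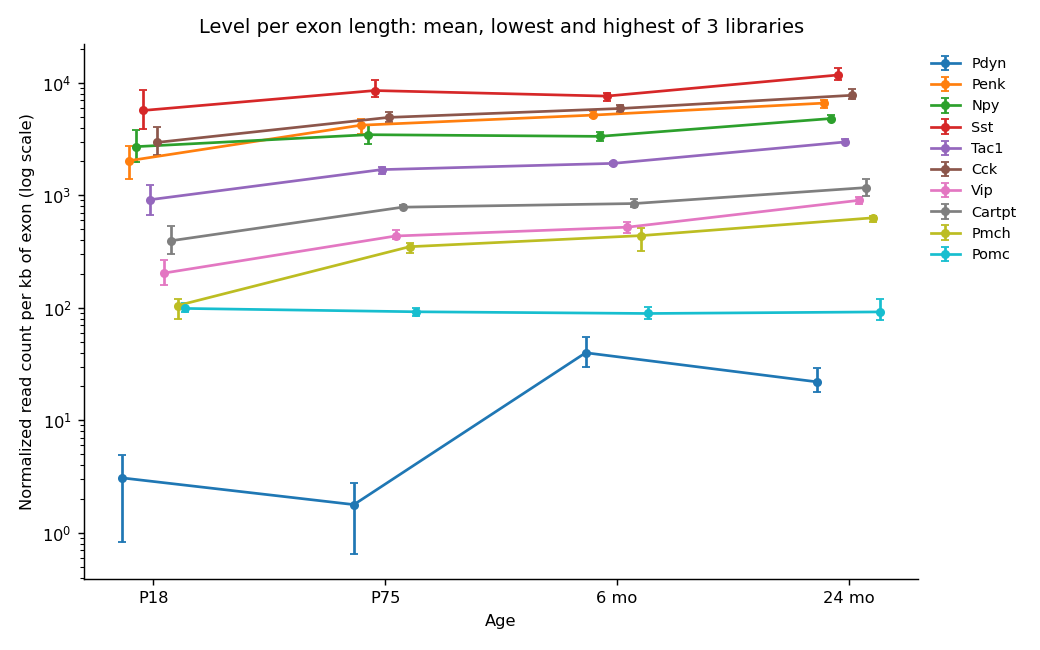
Normalized read counts per kb of merged exon are plotted by age on a log axis, with the mean of 3 libraries and bars from the lowest to the highest library. Sst is the highest line and Pdyn the lowest at each age, and the line of Pdyn steps up between P75 and 6 months from 1.78 to 39.8.

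For 8 of the 10 genes the spread between replicates was largest at P18. In that age the highest library was 1.67 to 2.21 times the lowest for Penk, Npy, Sst, Tac1, Cck, Vip and Cartpt, where the median over all tested genes was 1.23. For Pdyn, with few reads, it was 5.91 at P18 and 4.34 at P75. Replicate 3 of P18 was the highest for 9 of the 10 genes, and Pmch, the exception, was lowest there. That library also held the lowest summed level of the 8 myelin genes at its age (2470150, against 4211680 and 6185970) and the highest of the pan-neuronal genes (232069, against 205666 and 195644). The part of this in the neuropeptide levels was not tested. Leaving it out can only raise the change to P75 of the 9 genes that were highest in it, and 8 genes were then called higher. Without replicate 1 of P18, 6 were called higher and Pdyn lower, and without replicate 2 of P75 6 were called higher.

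At P75 the ratio of highest to lowest was 1.35, 1.47 and 1.44 for Penk, Npy and Sst, each highest in replicate 2, and 1.06 for Cartpt, with a median over all genes of 1.20. At 6 months most of the genes were close to the median of 1.17, with Pmch at 1.58 and Pdyn at 1.86. At 24 months, replicate 3 was highest for 8 of the 10 genes, with ratios of 1.64 for Pdyn, 1.54 for Pomc, 1.43 for Cartpt and 1.26 for Sst against a median of 1.16. The index of dispersion of the reads, which is about 1 when counting error alone acts, was 618 for Sst, 337 for Penk and 238 for Cck at P18. It was 1.05 for Pomc at P18 and 0.644 for Cartpt at P75, and 6.46 for Pomc and 34.4 for Cartpt at 24 months.

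Over the 12 libraries, deviations from the age mean went together for some pairs. The Pearson r of these deviations was 0.981 for Sst and Cck, 0.964 for Sst and Npy, and 0.875 for Penk and Npy. It was 0.278 for Pdyn and Npy and 0.341 for Penk and Vip, and negative for Pmch with each other gene, from −0.629 with Npy to −0.168 with Pomc. These values share the 12 libraries and their size factors, so they describe these libraries only. For Sst, Npy, Penk and Cck the spread was largest at P18, so their r values lean on the libraries of that age.

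**Figure D4:**
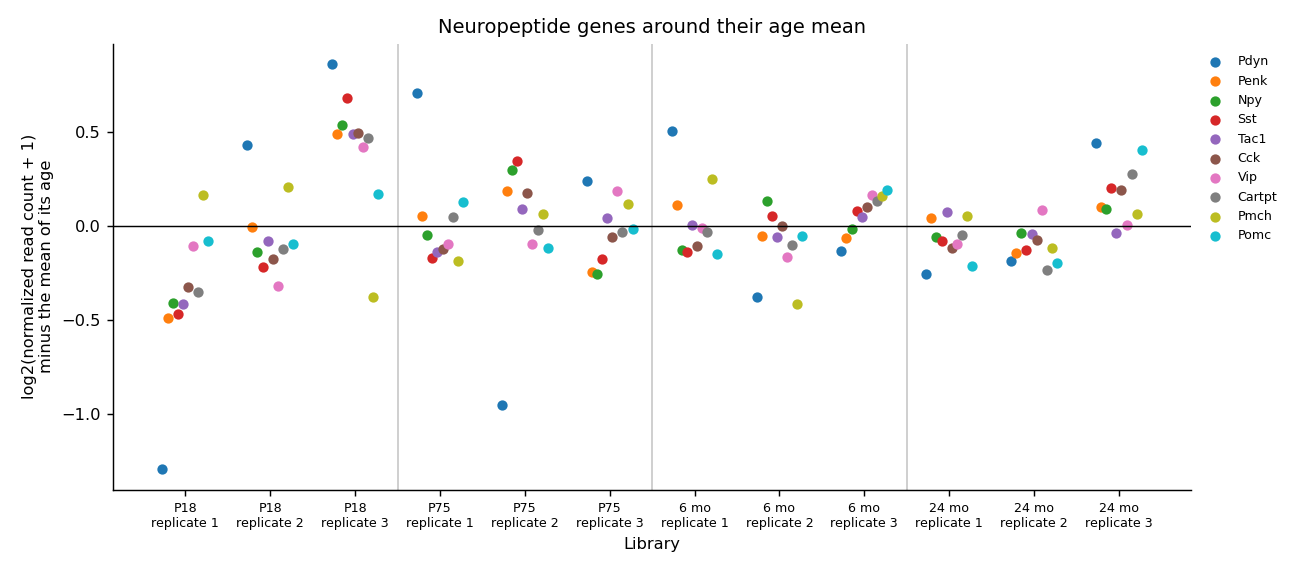
For each library the log2(normalized read count + 1) of each of the 10 genes is plotted as its difference from the mean of the 3 libraries of its age, with 1 colour per gene. In replicate 3 of P18 9 of the 10 points lie above 0 and Pmch lies below, and in replicate 3 of 24 months 8 genes have their highest value.

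The genes were also set against the pan-neuronal genes of the same library. The mean log2 distance of Penk from the mean of the pan-neuronal genes in the same library was −1.78 ± 0.38 (SD, n = 3) at P18 and −0.39 ± 0.11 at P75, then −0.37 ± 0.07 at 6 months and 0.20 ± 0.11 at 24 months. For Sst it was −1.78 ± 0.48, −0.83 ± 0.20, −1.26 ± 0.15 and −0.43 ± 0.11. For Vip it was −5.17 ± 0.28, −3.76 ± 0.27, −3.78 ± 0.19 and −2.77 ± 0.10. All 3 were thus closest to the pan-neuronal level at 24 months. Npy and Sst were called lower from P75 to 6 months with the pan-neuronal scaling, by −0.32 and −0.43 on the log2 scale, whereas Pdyn was called higher with every scaling. Pdyn was at −10.7 ± 0.95 at P75 and −6.60 ± 0.44 at 6 months. Between these ages the pan-neuronal level leans on Syt1, with a log2 change of 2.34. The pan-neuronal genes did not move as 1 group, since 1 of 11 was called higher and 7 lower in the first interval, 6 higher and 4 lower in the next, and 0 higher and 4 lower in the last.

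Markers of neurons that make these peptides were set beside them. Of 10 genes of striatal projection neurons, all in the table, 7 were called higher and 1 lower from P75 to 6 months, the interval in which Pdyn was called higher. Of all tested genes 31.2% were called higher and 29.4% lower there. The dopamine receptor genes Drd2 (30.4 to 141 normalized read counts) and Drd1a (218 to 538) had the largest log2 changes of the list, 2.17 ± 0.23 (SE) and 1.30 ± 0.16. Pde10a (0.03 ± 0.08) and Rgs9 (0.18 ± 0.11) were not called, and Rarb (−0.23 ± 0.11) was called lower. The sum over the list was 10302 to 11024 at P75, 13423 to 14361 at 6 months and 12830 to 13554 at 24 months, and it was 9984 to 13043 at P18. Of 6 genes of dentate gyrus granule cells, another site of prodynorphin, 4 were called higher and 0 lower in that interval, among them Prox1 with a log2 change of 0.71 ± 0.14. Their sum was 718 to 778 at P75, 834 to 964 at 6 months, 855 to 945 at 24 months and 530 to 611 at P18. In the same interval Penk and Tac1, which striatal neurons also make, were not called, although a fit of the 2 ages alone called both higher. What part either cell type has in the level of Pdyn was not tested.

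Of 10 genes of GABAergic interneurons, 4 were called higher and 2 lower in the first interval, 5 higher and 3 lower in the next, and 1 higher and 2 lower in the last. Their sum was 36154 to 40230 at P18 and 40643 to 44164 at P75, then 45451 to 47747 at 6 months and 44996 to 46846 at 24 months. Over all tested genes 25.9%, 31.2% and 16.6% were called higher in these intervals, and 22.9%, 29.4% and 12.7% lower. Of 8 genes of hypothalamic neurons 4 had a mean of at least 10, with 2 called higher in the first interval and 1 lower in the next, and the list summed to 120 to 202 at P18 and 177 to 214 at P75, then 141 to 157 at 6 months and 132 to 179 at 24 months. The genes called higher were Sim1 (1.35 ± 0.34 SE) and Fezf1 (1.21 ± 0.55), and Sim1 was the gene then called lower (−0.90 ± 0.34). By age, the mean of Hdc was 71.4 to 91.9 and that of Nkx2-1 29.9 to 45.2. The lowest gene of that list was Hmx3, with a mean of 0.792. From 6 to 24 months, 0 of the striatal genes were called higher and 3 lower, and 0 of the dentate genes higher and 1 lower.

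Genes of other neuropeptide precursors were taken from a list of 31, of which 24 had a mean of at least 10. All gene lists were chosen with earlier results of these data known, so the adjusted p-values printed for their genes are a description only. From P18 to P75, 16 were called higher and 1 lower, against 25.9% and 22.9% of all tested genes. The median log2 change of the precursors was 0.664. Oxt, the oxytocin precursor, went from 19.3 to 92.5 normalized read counts (2.25 ± 0.24 SE, limma adjusted p = 3.949e-06), and Hcrt, the orexin precursor, from 44.5 to 139 (1.62 ± 0.20, adjusted p = 1.368e-05). Npb, the neuropeptide B precursor, fell from 75.3 to 20.8 (−1.93 ± 0.32, adjusted p = 0.0001773).

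From P75 to 6 months 9 of the 24 precursors were called higher and 4 lower, against 31.2% and 29.4% of all tested genes. With pan-neuronal scaling 4 precursors were higher and 8 lower. Npff fell from 40.0 to 13.3 (−1.53 ± 0.22 SE, limma adjusted p = 2.952e-05). Ucn, the urocortin precursor, went from 7.59 to 17.8 (1.16 ± 0.44). Ucn, with means of 5.33 at P18 and 7.59 at P75, reached the minimum mean through the later ages, so no p-value is given for it. Cort, the cortistatin precursor, a relative of Sst, went from 82.2 to 160 (0.93 ± 0.30, limma adjusted p = 0.01451). From 6 to 24 months 14 were called higher and 1 lower, against 16.6% and 12.7% of all tested genes. The median of the precursors was 0.496, and 8 to 11 were called with 1 library left out. There were 8 without replicate 2 of 6 months and 9 without replicate 1 of 6 months or replicate 2 or 3 of 24 months. Agrp, the agouti-related peptide of arcuate feeding neurons, went from 12.8 to 36.3 (1.44 ± 0.36, adjusted p = 0.0124), Npff from 13.3 to 29.4 (1.09 ± 0.22, adjusted p = 0.004231), and Avp, the vasopressin precursor, from 201 to 405 (1.01 ± 0.26, adjusted p = 0.01437).

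Receptors of the 10 genes' peptides numbered 21, of which 17 had a mean of at least 10. From P18 to P75, 10 were called higher and 0 lower, against 25.9% and 22.9% of all tested genes. The median log2 change of the receptor genes was 0.421. The kappa opioid receptor gene Oprk1, the receptor of the dynorphins, went from 4.58 to 11.1 normalized read counts (1.34 ± 0.47 SE). Oprk1 had means of 4.58 at P18 and 8.65 at 24 months and reached the minimum of 10 through the other ages, so no p-value is given for it. Vipr2 went from 47.5 to 113 (1.24 ± 0.14, limma adjusted p = 8.098e-06) and Npy5r from 49.7 to 116 (1.21 ± 0.14, adjusted p = 8.314e-06). From P75 to 6 months 11 were called higher and 0 lower, with a median of 0.723, and 9 with pan-neuronal scaling. Over all tested genes 31.2% were called higher and 29.4% lower there with the authors' scaling. Oprd1, the delta opioid receptor gene, went from 8.51 to 39.0 (2.10 ± 0.31), Sstr2, a somatostatin receptor gene, from 50.2 to 197 (1.95 ± 0.19, adjusted p = 1.086e-06), and Cckar from 16.1 to 32.3 (0.95 ± 0.24, adjusted p = 0.003373). Oprd1, with means of 11.1 at P18 and 8.51 at P75, reached the minimum of 10 through the later ages, so no p-value is given for it. Oprm1, the mu opioid receptor gene, had a mean of 2.16 and was not tested.

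From 6 to 24 months 4 receptor genes were called higher and 0 lower, against 16.6% and 12.7% of all tested genes. The receptor count was 2 without replicate 2 of 6 months and 1 without replicate 2 of 24 months. Npy5r went from 133 to 209 (0.64 ± 0.14 SE, limma adjusted p = 0.006511), Tacr3, a tachykinin receptor gene, from 180 to 254 (0.50 ± 0.15, adjusted p = 0.02945), and Vipr2 from 134 to 182 (0.44 ± 0.14, adjusted p = 0.03862).

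All 16 genes of prohormone processing and dense-core vesicles were tested. From P18 to P75, 13 were called higher and 1 lower, against 25.9% and 22.9% of all tested genes. The median log2 change of the processing genes was 0.537. Qpct, which forms the pyroglutamate end of some peptides, went from 200 to 481 normalized read counts (1.25 ± 0.11 SE, limma adjusted p = 6.339e-07). The secretogranin gene Scg2 went from 2250 to 4465 (0.996 ± 0.13, adjusted p = 1.83e-05) and Scg5, the chaperone of a prohormone convertase, from 3394 to 6187 (0.89 ± 0.13, adjusted p = 6.589e-05). From P75 to 6 months 13 were called higher and 0 lower, with a median of 0.638, and 9 higher and 2 lower with pan-neuronal scaling. Over all tested genes 31.2% were called higher and 29.4% lower there with the authors' scaling. Ptprn2, a dense-core vesicle membrane protein, went from 1061 to 3844 (1.85 ± 0.11, adjusted p = 1.116e-08), the convertase gene Pcsk1 from 137 to 366 (1.39 ± 0.20, adjusted p = 3.537e-05), and Scg2 from 4465 to 9993 (1.15 ± 0.13, adjusted p = 2.473e-06).

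From 6 to 24 months 4 of these 16 genes were called higher and 1 lower, and the total was 3 without any 1 of the 6 libraries other than replicate 2 of 6 months. Pcsk1n, an inhibitor of the convertase of Pcsk1, went from 5626 to 8230 (0.57 ± 0.18 SE, limma adjusted p = 0.03728), Qpct from 603 to 837 (0.47 ± 0.11, adjusted p = 0.00757), and Scg5 from 7413 to 10188 (0.46 ± 0.13, adjusted p = 0.02304). Of all tested genes 16.6% were called higher in this interval and 12.7% lower. The difference between the peptide genes and the processing genes in each interval was not tested.

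**Figure D5:**
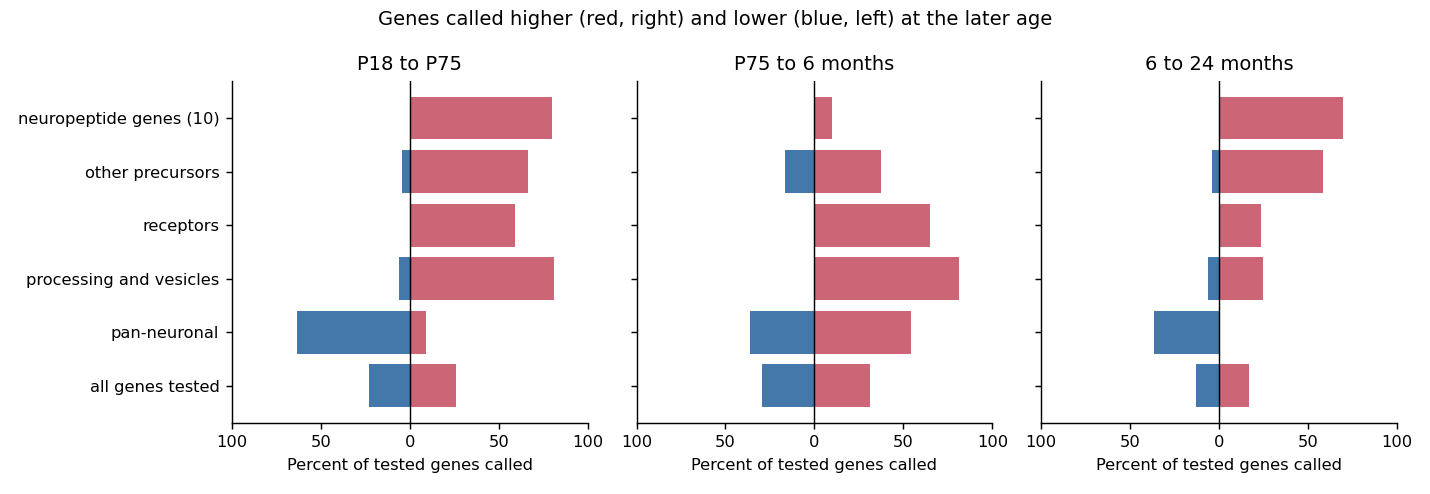
The percent of tested genes called higher (red, to the right) and lower (blue, to the left) at the later age is plotted for the 10 neuropeptide genes, the 3 lists of peptide biology, the pan-neuronal genes and all tested genes, with the authors' scaling. From P75 to 6 months the bar of the neuropeptide genes stands for Pdyn alone, while 11 of 17 receptor genes and 13 of 16 processing genes were called higher, 9 of each with pan-neuronal scaling.

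Genes whose log2 level was among the most alike over the 12 libraries were found among 12490 genes with a mean of at least 50. For Pdyn they were Yipf2 (Pearson r = 0.983), Ano8 (0.975) and Cacna1e (0.975). For Penk they were Mbtps1 (0.991) and Nucb2 (0.984), and for Npy Akap8l (0.974), Tctn3 (0.945) and Dlk2 (0.943). Sst was nearest to Akap8l (0.972), Grp (0.961) and Tmem85 (0.961), and Cck to Ly6h (0.987), Crocc (0.984) and Adam15 (0.983). Tac1 was nearest to Scg5 (0.992), Gpr151 (0.988) and Atl1 (0.987), Vip to Amigo2 (0.991), Synpr (0.991) and Matn2 (0.990), and Cartpt to Galnt14 (0.982) and Igf2r (0.979). Pmch was nearest to Cntn6 (0.991) and Acvr1c (0.987). For Pomc no gene came above Gem (0.813), Ier5l (0.804) and Gadd45b (0.778). These r values rest on 12 points in 4 ages, and the best of many genes is high by selection, so they only name genes of like course.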

How the data were processed

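RNA of purified mouse brain myelin was sequenced in 12 libraries, 3 per age. Alignment by the authors used TopHat and mm9, counting used HTSeq-count, and counts were divided by the size factors of DESeq, so the deposited signal is a normalized read count, with no correction for length. Whole reads were recovered from the value of 1 read for at least 99.99% of the values above 0 per library, within a tolerance of 0.1 reads. The 10 genes and all gene lists were chosen with earlier results of these data known.

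Ages were compared with limma 3.58.1 (trend, R 4.3.3) on log2(normalized read count + 1) in 1 fit over 12 libraries, for 14634 genes with a mean of at least 10, with Benjamini-Hochberg adjustment over all of them and a false discovery rate of 0.1. Adjusted p-values measure the spread between 3 libraries per age, which may in part be technical. On simulated data, 98.5% to 100% of 200 genes changed 3-fold among 14634 were recovered, and 20 to 22 unchanged genes were called. The simulation gave every gene the same low dispersion, whereas the real spread could be far larger, as for Sst at P18 (index of dispersion 618). Most changes of the 10 genes were also under 3-fold, so this recovery does not describe the calls above. Alternatives were pseudocounts of 0.5 and 10, no filter or a mean over 100, fits of 2 ages, other scalings, edgeR 4.0.16 and DESeq2 1.42.0 on recovered reads, a rate of 0.05, leaving out each library, and a replicate block. Deviations of same-numbered libraries correlated at 0.161, 0.101 and 0.187 for P75 and 6 months and from −0.213 to −0.026 for the other neighbouring ages. These values do not show a pairing, since a brain yields myelin at only 1 age. The replicate block is an alternative fit only. In each of the lists of other precursors, receptors and processing genes, the 3 called genes with the largest absolute change per comparison were named. In marker lists any gene could be named. For each of the 10 genes, the 3 with the highest r were named, except that some genes are not reported here. Coordinates are NCBIM37 (GENCODE vM1), and Python 3.11.15 was used for the rest.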

Additional observations from a re-analysis of the deposited data

How the results depend on the processing

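The count of neuropeptide genes called from P75 to 6 months was 1, and it was 0 with a minimum mean of 100 (which removed Pdyn and Pomc from the test), 5 in a fit of those 2 ages alone, 2 with the replicate block, 2 with edgeR, 2 with DESeq2 and 1 to 2 with each library left out. From 6 to 24 months it was 4 at a rate of 0.05 and 3 to 6 with each library left out, and a fit of those 2 ages alone also called Penk higher and Pdyn lower. For all genes, 2856 were called in that interval at a rate of 0.05 and 2478 to 3863 with each library left out, against 4287. Of the other precursors 9 were called at 0.05 and 8 to 11 with each library left out. Of the receptor genes 2 were called with the same-total scaling, 7 with quantile normalization and 1 to 5 with each library left out. Of the processing genes 3 were called with the same-total scaling, 3 at 0.05 and 3 to 5 with each library left out. The replicate block gave 8, 2 and 7 neuropeptide genes and changed no other call of them than that of Vip.

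The sign of small changes that were not called turned. With pan-neuronal scaling the change from P75 to 6 months was −0.097 for Tac1, −0.017 for Cck, −0.024 for Vip and −0.179 for Cartpt. That of Pomc from P18 to P75 was 0.028 with the same-total and 0.196 with the pan-neuronal scaling, and from 6 to 24 months it was −0.016 with the same-total scaling and −0.068 with quantile normalization. With each library left out, the change from P75 to 6 months was −0.161 to 0.115 for Npy, −0.234 to 0.028 for Sst and −0.151 to 0.019 for Pomc, and that of Pomc from 6 to 24 months −0.179 to 0.128. The cause was not tested. Of 504 changes of single genes under alternatives other than the rate of 0.05, 437 kept direction and call, 33 lost the call, 18 gained it and 16 turned sign. At the rate of 0.05, Npy lost its call from P18 to P75, and Sst, Cck and Cartpt theirs from 6 to 24 months. Of 40 ratios between replicates, 5 moved by over 1 SD with the same-total scaling. Depth limits Pdyn at P18 and P75, where it rests on 2 to 14 reads.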

Other observations

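Within an age, other genes followed the same libraries as the neuropeptide genes. The deviations of Penk from its age means were most like those of Furin (Pearson r = 0.987 over 12 libraries), a prohormone convertase of the secretory pathway, Entpd6 (0.978) and 2310067B10Rik (0.963). Those of Sst were most like Adam15 (0.993), Pelo (0.983) and 2610301G19Rik (0.982), and those of Npy most like Ubl7 (0.986), Psme1 (0.980) and Gm1821 (0.974). For Cck they were Akap8l (0.983), Dbn1 (0.975) and Trpv6 (0.969), and for Cartpt Fbxo31 (0.995), Sema6c (0.952) and Trpv6 (0.935). Each is the best of 12490 genes over 12 points that share their libraries, and is given as a description. For all of these neuropeptide genes the spread was largest at P18, so the libraries of that age weigh most.

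Of 8 genes of excitatory neurons of cortex and hippocampus, 1 was called higher and 2 lower from P18 to P75, 4 higher and 3 lower from P75 to 6 months, and 0 higher and 3 lower from 6 to 24 months. The list summed to 29603 to 42883 at P18, 24741 to 33407 at P75, 51332 to 55158 at 6 months and 39867 to 43976 at 24 months. Over all tested genes 25.9%, 31.2% and 16.6% were called higher in these intervals, and 22.9%, 29.4% and 12.7% lower. Slc17a7, a vesicular glutamate transporter gene, went from 5798 to 15204 normalized read counts in the middle interval (limma log2 change 1.41 ± 0.16 SE, adjusted p = 3.503e-06). Camk2a went from 17533 to 31208, and these genes held most of the sum, so it does not describe the other genes of the list. Those called lower in that interval were Neurod2 (−0.41 ± 0.12), Tbr1 (−0.31 ± 0.10) and Emx1 (−0.63 ± 0.19). Of 8 genes of cerebellar neurons, 1 was called higher and 2 lower, then 4 higher and 2 lower, then 2 higher and 0 lower. That list summed to 20605 to 23498 at P18 and 21713 to 23956 at 24 months.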
